A study of Mus musculus with 6 samples.

Results

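The genes described here are 10 genes of glucose uptake and glycolysis, measured in mouse cells that were sorted for an Oct4 reporter along a neural differentiation. They are the glucose transporters Slc2a1 and Slc2a3, the hexokinases Hk1 and Hk2, the phosphofructokinases Pfkp and Pfkl, the aldolases Aldoa and Aldoc, the lactate dehydrogenase Ldha and the pyruvate dehydrogenase kinase Pdk1. All 10 were measured, among 18193 genes in all, by 28 probe sets whose platform annotation gives that 1 gene alone. A further probe set, which the annotation gives to Hk1 together with Rpl17 and related sequences, was left out. The cells come from OLV2-1, a mouse embryonic stem cell line whose Oct4 (Pou5f1) locus carries the fluorescent protein Venus, so that every group has the same knock-in. Each of the 3 groups has 2 arrays: stem cells kept undifferentiated (ESC), cells that resemble epiblast stem cells (EpiSC-like) from day 3 of SFEBq, a serum-free suspension culture of reaggregated cells, and cells from day 7 of SFEBq. All were sorted as Venus-positive; the protocol adds that EpiSC-like cells were negative and ESC positive for Pecam1 (CD31), and names no Pecam1 gate at day 7. Trypsin (0.25%) with 1 mM EDTA and 1 hour of recovery in medium were used for the ESC and EpiSC-like sorts. For the day 7 sort saline with 1 mM EDTA was used, and no trypsin or recovery is named. Differences of the day 7 cells from either other group therefore cannot be told apart from that handling. No label states whether 2 arrays of a group stem from different cultures, and the p-values therefore cover the spread among these arrays, which may be technical.

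Glucose enters cells through facilitative transporters and is trapped by hexokinase as glucose 6-phosphate. Phosphofructokinase commits the sugar to glycolysis, aldolase splits it, and lactate dehydrogenase turns the final pyruvate into lactate, while pyruvate dehydrogenase kinases restrain the entry of pyruvate into the mitochondria. Most steps have several isozymes from separate genes, with different tissues and control. Pluripotent cells are known for high glycolysis, and early neural differentiation is known as a time at which the balance of glycolysis and respiration shifts. Several genes of the pathway are textbook targets of the hypoxia-inducible factors.

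Summed stage markers lay apart between EpiSC-like cells and ESC, while the genes of the sorting gates did not pass the test. Pou5f1 and Sox2 were called in no comparison, and Pecam1 had 401 and 177 units in EpiSC-like cells against 728 and 343 in ESC, with overlap. The 6 naive stem cell markers summed to 49896 and 62978 intensity units in ESC, 20754 and 14669 in EpiSC-like cells, and 31508 and 35231 at day 7. The 6 formative markers, Fgf5 and Pou3f1 among them, summed to 13025 and 9885, to 31908 and 35923, and to 18606 and 13696 in the same order of groups. The 6 neural progenitor markers summed to 398 and 423 in ESC, 1726 and 2118 in EpiSC-like cells, and 1638 and 2488 at day 7. The 5 neuron markers summed to 9589 and 14386, to 2693 and 2159, and to 2571 and 5220 in that order. Stmn2 made up most of the ESC sums (8317 and 13364 units) and was the only neuron marker called. Against ESC it stood at -2.45 at day 7 (limma adjusted p = 0.0465) and at -3.02 in EpiSC-like cells (adjusted p = 0.0248). For day 7 against ESC 4 of the 5 markers were above 0, none of them called, with Dcx at 3.00 (adjusted p = 0.154). The 3 blood markers summed to no more than 88.6 on any array. The 3 endothelial markers summed to between 226 and 503. The highest signal was 30793 to 36841 on the 3 replicate 1 arrays and 63296 to 66643 on the 3 replicate 2 arrays. This range touches the brightest genes described here, Slc2a1, Slc2a3, Aldoa and Ldha. Their day 7 differences from ESC are therefore also given within each replicate number.

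At day 7 all 10 genes had higher mean signals than in ESC, with a median log2 difference of 0.51, against a median of 0.02 over all genes. With arrays centred on their median, these medians were 0.29 and -0.20. A single one passed the test, Aldoc, an aldolase that is abundant in brain, which rose by 2.15 ± 0.27 (log2 difference ± SE; limma adjusted p = 0.0357). In this comparison 0.764% of all genes were called higher, 0.286% lower and 1.05% in either direction. In EpiSC-like cells against ESC the genes did not share a direction, with 6 above 0, a median of 0.25 and 0 of 10 called, where 1.9% of all genes were called, 1.33% higher and 0.572% lower. In day 7 against EpiSC-like cells 9 of 10 values were above 0, with a median of 0.50 and 0 of 10 called. In that comparison limma called 0 of 18193 genes (0% in either direction), with a smallest adjusted p of 0.0522 and 2573 genes at an unadjusted p under 0.05, among them 3 of the 10 genes. All comparisons use log2(signal + 16), and called means that the p-value, adjusted after Benjamini and Hochberg over all 18193 genes, was under 0.05. Each pair of the 3 comparisons shares an array group, so the comparisons are not independent of each other. Neither the 10 genes nor the lists were chosen blind to these data, so counts over them are descriptions.

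**Figure D1:**
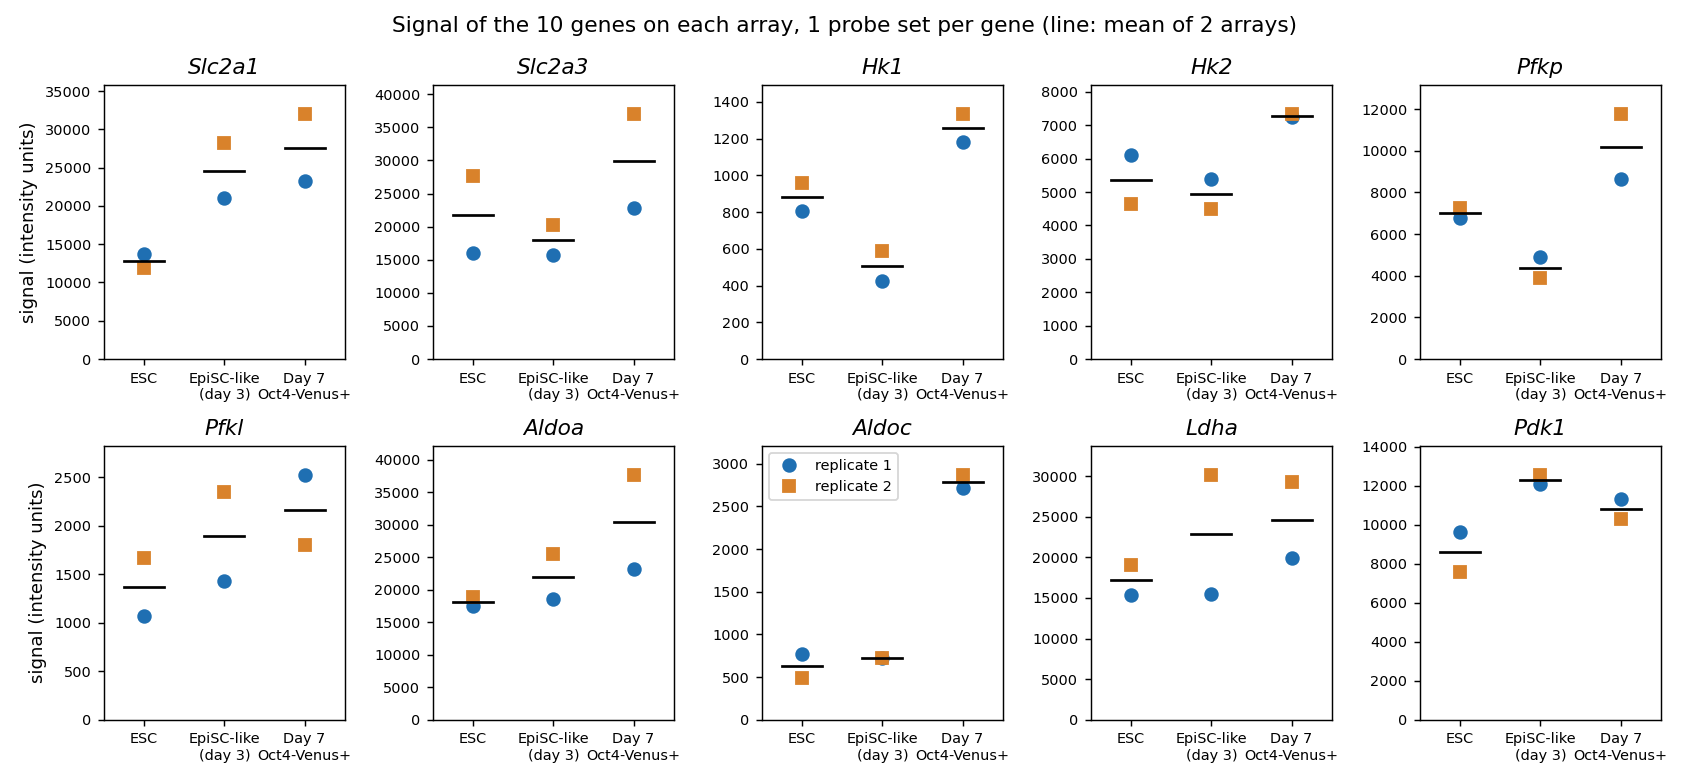
Signal (linear intensity units, from 0) of the 10 genes on each of the 6 arrays, by group; circles are replicate 1, squares replicate 2, and lines the mean of 2 arrays. Aldoc stood at 2712 and 2867 at day 7, above the other 4 arrays, while Hk1 and Pfkp were lowest in the EpiSC-like cells.

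The day 7 values lay apart from ESC for most of the genes. In 9 of the 10, both day 7 arrays were above both ESC arrays, where 26.7% of all genes were higher without overlap and 23.5% lower. The exception was Slc2a3. The members' median difference from ESC was 0.46 among the replicate 1 arrays and 0.64 among the replicate 2 arrays. For EpiSC-like cells against ESC, 2 genes were higher without overlap (Slc2a1 and Pdk1) and 2 lower (Hk1 and Pfkp), with a background of 25% and 19.8% of all genes. The median over the 10 genes was -0.01 in the replicate 1 arrays and 0.47 in the replicate 2 arrays. For day 7 against EpiSC-like cells, 5 were higher without overlap (Slc2a3, Hk1, Hk2, Pfkp and Aldoc) and 1 lower (Pdk1), with a background of 21.4% and 24.5%.

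**Figure D2:**
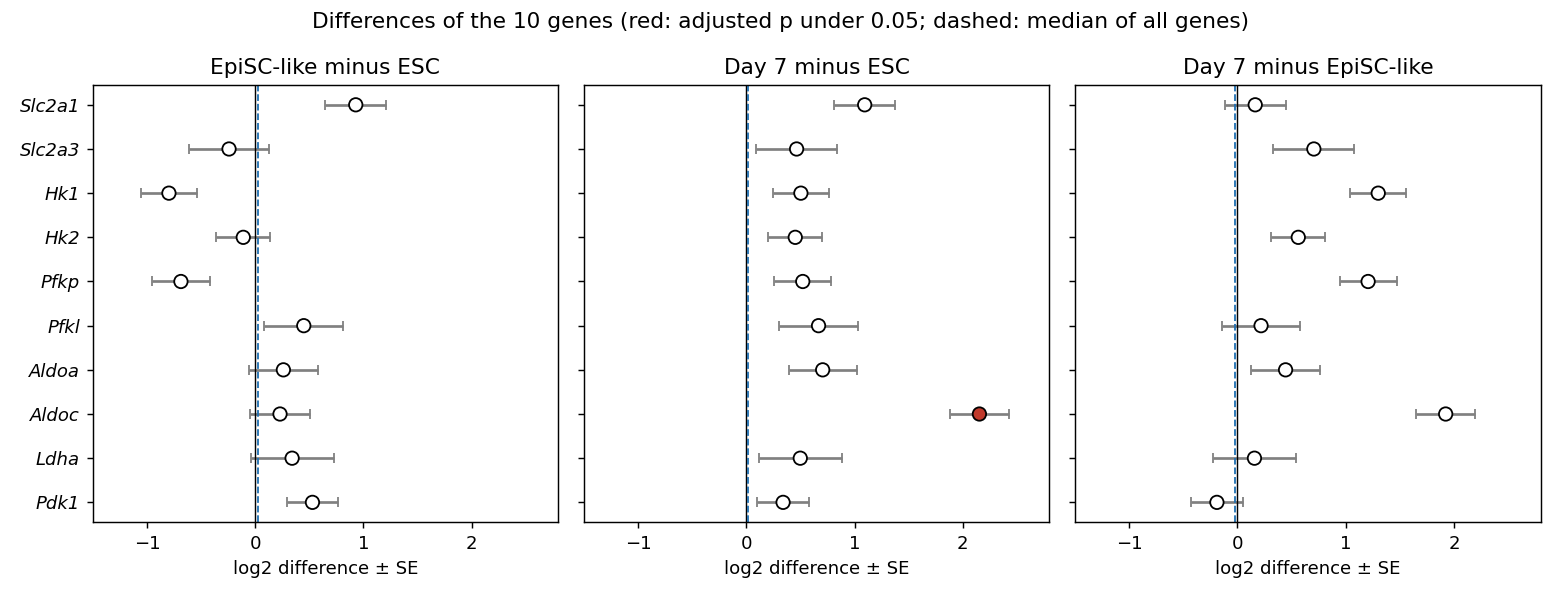
Log2 differences of the 10 genes with their standard errors in the 3 comparisons; the dashed line is the median of all genes. All 10 points lie right of 0 for day 7 minus ESC, and the filled point is Aldoc, the only one with an adjusted p under 0.05.

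The glucose transporters are the entry point of the pathway, and neither passed the test over all genes. Slc2a1, which encodes the widespread transporter GLUT1 (NCBI gene 20525, chromosome 4, GRCm38.p6 positions 119108745 to 119137330), had signals of 13770 and 11848 in ESC, 21052 and 28167 in EpiSC-like cells, and 23290 and 31965 at day 7. Both SFEBq groups lay above both ESC arrays, and overlapped each other. Its log2 difference was 0.93 ± 0.28 for EpiSC-like cells against ESC (limma adjusted p = 0.172) and 1.09 ± 0.28 for day 7 against ESC (adjusted p = 0.120), so neither passed. Between day 7 and EpiSC-like cells it was 0.16 ± 0.28 (adjusted p = 0.849). All 3 probe sets of Slc2a1 were higher than in ESC in both SFEBq groups, by 0.93 to 1.31 in EpiSC-like cells and by 1.09 to 1.23 at day 7. Among genes at or above the median of mean signal, Slc2a1 passed for day 7 against ESC (adjusted p = 0.0338), in a fit that called 9.15% of 9097 genes.

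Slc2a3 encodes GLUT3, a transporter of high affinity known from neurons and the early embryo (NCBI gene 20527, chromosome 6). It had 16072 and 27580 units in ESC, 15695 and 20225 in EpiSC-like cells, and 22854 and 36971 at day 7. Its replicates differed more than the groups did between ESC and either SFEBq group. The log2 difference was 0.47 ± 0.37 for day 7 against ESC (adjusted p = 0.564), -0.24 ± 0.37 for EpiSC-like cells against ESC (adjusted p = 0.833) and 0.71 ± 0.37 for day 7 against EpiSC-like cells (adjusted p = 0.463). Within the replicate 1 and replicate 2 arrays, day 7 stood at 0.51 and 0.42 against ESC, and at 0.54 and 0.87 against EpiSC-like cells. EpiSC-like cells stood at -0.03 and -0.45 against ESC. A much dimmer probe set of the gene had 211 and 292 units in ESC, 161 and 176 in EpiSC-like cells, and 878 and 556 at day 7. That probe set stood 1.43 ± 0.31 above ESC at day 7 (adjusted p = 0.115 over all probe sets), against 0.47 and 0.69 for the 2 brightest probe sets. The dimmest of the 4 had 183 and 155 units at day 7 against 59.3 and 117 in ESC.

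The bright transporter signals stood high in the range of each array. For Slc2a1 they were 63.2% and 48.0% of the array's maximum on the day 7 arrays, against 43.4% and 18.6% in ESC. For Slc2a3 they were 62.0% and 55.5% at day 7, against 50.7% and 43.2% in ESC. The Slc2a1 difference between day 7 and ESC was 0.76 in the replicate 1 arrays and 1.43 in the replicate 2 arrays. Whether the upper end of the range compressed the values of these genes was not tested.

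The promoter window of Slc2a1 is shown because this gene stood above ESC in both SFEBq groups. It runs from 250 bases before to 50 bases after the start site in RefSeq's GRCm38.p6 annotation, chr4:119108495-119108794, plus strand. Capitals mark the core of the hypoxia response element, ACGTG or GCGTG, on either strand, which reads CACGT or CACGC on the other strand.
Slc2a1: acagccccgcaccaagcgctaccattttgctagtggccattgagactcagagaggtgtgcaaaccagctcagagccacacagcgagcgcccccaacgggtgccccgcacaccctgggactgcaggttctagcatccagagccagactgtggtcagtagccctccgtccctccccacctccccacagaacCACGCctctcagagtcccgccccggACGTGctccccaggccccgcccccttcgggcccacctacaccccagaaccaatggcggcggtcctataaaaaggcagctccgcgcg
The core appears at positions -61 and -36 from the start site. The letters TATAAA lie after the annotated start site, near the end of the window. Of 32851 promoter windows of that length, 43.8% hold the core on either strand. Windows were matched for 9 of the 10 genes (all but Slc2a3), and each of these 9 had at least 1 window with a match, in 12 of their 15 windows. Overlapping windows of Aldoa hold the same match, so it enters the 12 more than once. The 43.8% is a share of windows, and no share by gene was taken to set beside the 9. A match is a description of the letters, not of a binding site. GC content was 65.3% in the Slc2a1 window.

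The hexokinases trap glucose as its 6-phosphate. Hk1, the hexokinase of brain and most tissues (NCBI gene 15275, chromosome 10), had 808 and 958 units in ESC, 426 and 587 in EpiSC-like cells, and 1182 and 1332 at day 7. The groups did not overlap in any of the 3 comparisons: EpiSC-like cells were lowest and day 7 cells highest. The log2 difference was -0.80 ± 0.26 for EpiSC-like cells against ESC (adjusted p = 0.200) and 0.50 ± 0.26 for day 7 against ESC (adjusted p = 0.363). It was 1.30 ± 0.26 for day 7 against EpiSC-like cells (adjusted p = 0.115), 1.44 in the replicate 1 and 1.16 in the replicate 2 arrays. With a pseudocount of 64 this last difference passed (1.22 ± 0.20, adjusted p = 0.0492), and it passed among genes at or above the median of mean signal (adjusted p = 0.0265). Those fits called 1.15% and 3.44% of the genes tested. A dim probe set of Hk1 had 61.4 and 76.3 units at day 7 against 16.8 and 61.1 in EpiSC-like cells.

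Hk2, the insulin- and hypoxia-regulated hexokinase of muscle and of many proliferating cells (NCBI gene 15277, chromosome 6), had 6108 and 4632 units in ESC, 5402 and 4499 in EpiSC-like cells, and 7242 and 7327 at day 7. Day 7 lay above both other groups, which overlapped each other. Its difference was 0.45 ± 0.25 for day 7 against ESC (adjusted p = 0.396) and 0.56 ± 0.25 against EpiSC-like cells (adjusted p = 0.387). It was -0.11 ± 0.25 for EpiSC-like cells against ESC (adjusted p = 0.894). It has 1 probe set.

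Phosphofructokinase is the committed step. Pfkp, the platelet-type subunit that is also found in brain (NCBI gene 56421, chromosome 13), had 6767 and 7277 units in ESC, 4892 and 3882 in EpiSC-like cells, and 8647 and 11756 at day 7. As with Hk1, no 2 groups overlapped and the EpiSC-like cells were lowest. The difference was -0.69 ± 0.26 for EpiSC-like cells against ESC (adjusted p = 0.274), 0.52 ± 0.26 for day 7 against ESC (adjusted p = 0.356) and 1.21 ± 0.26 for day 7 against EpiSC-like cells (adjusted p = 0.132). The last of these passed among genes at or above the median of mean signal (adjusted p = 0.0347), where 3.44% of genes did.

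All 3 probe sets of Pfkp were lower in EpiSC-like cells than in ESC, by log2 differences of -0.37 to -0.69, and higher at day 7 than in EpiSC-like cells, by 0.35 to 1.91. Against ESC they did not share a direction at day 7: the second stood at 1.30 ± 0.56, with 1504 and 891 units at day 7 against 679 and 312 in ESC, and the dimmest at -0.03 ± 0.30. The window of Pfkp (chr13:6648722-6649021, minus strand) is shown because the gene was lowest in EpiSC-like cells and its window holds the core 4 times, each as GCGTG on the gene's own strand.
Pfkp: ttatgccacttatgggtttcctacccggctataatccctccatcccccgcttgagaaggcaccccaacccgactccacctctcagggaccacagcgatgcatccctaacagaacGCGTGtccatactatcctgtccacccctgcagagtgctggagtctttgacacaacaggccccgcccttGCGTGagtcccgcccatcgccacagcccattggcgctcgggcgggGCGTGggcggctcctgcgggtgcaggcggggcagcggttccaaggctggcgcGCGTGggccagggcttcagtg
The matches lie at -136, -68, -23 and 30 from the start site. The window also holds 4 copies of the GC box GGGCGG, searched on both strands, a word found in 35.7% of all windows.

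Pfkl, the liver-type subunit (NCBI gene 18641, chromosome 10), had 1073 and 1665 units in ESC, 1426 and 2352 in EpiSC-like cells, and 2522 and 1804 at day 7. Only day 7 and ESC did not overlap. The difference was 0.67 ± 0.36 for day 7 against ESC (adjusted p = 0.389), which was 1.22 in the replicate 1 arrays and 0.11 in the replicate 2 arrays. For EpiSC-like cells against ESC it was 0.45 ± 0.36 (adjusted p = 0.633), and 0.22 ± 0.36 for day 7 against EpiSC-like cells (adjusted p = 0.844). The second probe set, with 1134 and 778 units at day 7 against 506 and 900 in ESC, was likewise higher in replicate 1 at day 7 and in replicate 2 in ESC. The dimmest had 209 and 178 units at day 7 against 132 and 133 in ESC.

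The aldolases split fructose 1,6-bisphosphate. Aldoc (NCBI gene 11676, chromosome 11) had 765 and 492 units in ESC, 720 and 726 in EpiSC-like cells, and 2712 and 2867 at day 7. Both day 7 arrays lay far above the other 4, which overlapped between their groups. Day 7 averaged 2790 ± 109 units against 629 ± 193 in ESC (SD, n = 2 each), a ratio of means of 4.44. The log2 difference of 2.15 ± 0.27 from ESC was the 1 call among the 10 genes (limma adjusted p = 0.0357), and it was 1.80 in the replicate 1 and 2.504 in the replicate 2 arrays. Against EpiSC-like cells the difference was 1.92 ± 0.27 (adjusted p = 0.0818). It passed with a pseudocount of 64 (adjusted p = 0.0286), with genes below the 25th percentile of mean signal left out (0.0386), and with all genes below the median left out (0.0103), where 1.15%, 1.01% and 3.44% of genes did. EpiSC-like cells stood at 0.23 ± 0.27 against ESC (adjusted p = 0.766).

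The call of Aldoc was lost when any 1 of the 6 arrays was left out, in fits where hardly any gene passed. Its difference was then from 1.84 to 2.46. The call was also lost with a pseudocount of 1, with the replicate number as a block, with all probe sets tested separately and in a fit on the arrays of the 2 groups alone (adjusted p from 0.0557 to 0.106). For day 7 against ESC those fits called from 0% to 0.0385% of all genes. The second probe set of Aldoc was dim, with 7.90 and 20.1 units in ESC, 5.004 and 4.07 in EpiSC-like cells, and 29.4 and 35.9 at day 7. The upstream window of Aldoc (chr11:78322823-78323122, plus strand) is shown because it belongs to the gene that passed.
Aldoc: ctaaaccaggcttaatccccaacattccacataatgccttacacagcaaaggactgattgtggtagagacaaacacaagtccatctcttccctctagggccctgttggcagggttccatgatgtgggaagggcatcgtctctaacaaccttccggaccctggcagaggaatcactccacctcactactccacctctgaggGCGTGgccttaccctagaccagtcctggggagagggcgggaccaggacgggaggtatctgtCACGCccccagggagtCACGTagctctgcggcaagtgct
It holds the core 3 times, at -50, 12 and 28 from the start site, and its GC content is 56.3%. A downstream window of the same gene holds 1 more match.

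Aldoa, the aldolase of muscle and of most growing cells (NCBI gene 11674, chromosome 7), had 17461 and 18833 units in ESC, 18535 and 25498 in EpiSC-like cells, and 23262 and 37638 at day 7. Day 7 and ESC did not overlap. The difference was 0.71 ± 0.32 for day 7 against ESC (adjusted p = 0.301), 0.26 ± 0.32 for EpiSC-like cells against ESC (adjusted p = 0.771) and 0.44 ± 0.32 for day 7 against EpiSC-like cells (adjusted p = 0.591). The day 7 difference from ESC was 0.41 in the replicate 1 arrays and 0.998 in the replicate 2 arrays. All 5 probe sets of Aldoa were higher at day 7 than in ESC, by 0.26 to 0.83. All 5 carry the array maker's suffix for probes that may bind other transcripts, so these values can hold signal of near-identical copies. The second brightest probe set of Slc2a3 and the probe set used for the glycolysis gene Tpi1 carry the same suffix.

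Ldha makes lactate from pyruvate (NCBI gene 16828, chromosome 7). It had 15303 and 19009 units in ESC, 15516 and 30134 in EpiSC-like cells, and 19864 and 29265 at day 7. Day 7 lay above ESC without overlap, and EpiSC-like cells overlapped both. The difference was 0.50 ± 0.38 for day 7 against ESC (adjusted p = 0.547), 0.34 ± 0.38 for EpiSC-like cells against ESC (adjusted p = 0.748) and 0.16 ± 0.38 for day 7 against EpiSC-like cells (adjusted p = 0.903). The EpiSC-like difference from ESC was 0.02 in the replicate 1 arrays and 0.66 in the replicate 2 arrays. For day 7 against ESC these values were 0.38 and 0.62.

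The window of Ldha (chr7:46845554-46845853, plus strand) is shown because it holds the core most often among the 15 windows.
Ldha: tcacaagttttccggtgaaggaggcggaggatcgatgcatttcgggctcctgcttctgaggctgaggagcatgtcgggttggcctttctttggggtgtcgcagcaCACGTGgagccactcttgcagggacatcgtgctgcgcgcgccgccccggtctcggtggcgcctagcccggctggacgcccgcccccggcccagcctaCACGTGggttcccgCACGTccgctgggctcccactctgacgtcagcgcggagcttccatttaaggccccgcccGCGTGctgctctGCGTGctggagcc
Counted on both strands there are 7 matches in 5 separate runs, since the palindrome CACGTG, the E-box bound by Myc, Usf and related factors, contains the core on each strand. That palindrome is present 2 times here, and 7.15% of all windows hold it. It was in no other window of the 9 genes.

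Pdk1 phosphorylates pyruvate dehydrogenase and so holds pyruvate back from the mitochondria (NCBI gene 228026, chromosome 2). It had 9617 and 7550 units in ESC, 12086 and 12542 in EpiSC-like cells, and 11321 and 10285 at day 7. It was the only 1 of the 10 genes with its highest mean in the EpiSC-like cells, which lay above both other groups. The difference was 0.53 ± 0.24 for EpiSC-like cells against ESC (adjusted p = 0.349), 0.34 ± 0.24 for day 7 against ESC (adjusted p = 0.505) and -0.19 ± 0.24 for day 7 against EpiSC-like cells (adjusted p = 0.779). The second probe set stood at 0.68 and 0.31 in the first 2 of these comparisons. Another stood at -0.22 and -0.27, so the probe sets of Pdk1 disagree in direction. The dimmest had 49.1 and 31.4 units at day 7 against 3.04 and 1.38 in ESC.

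**Figure D3:**
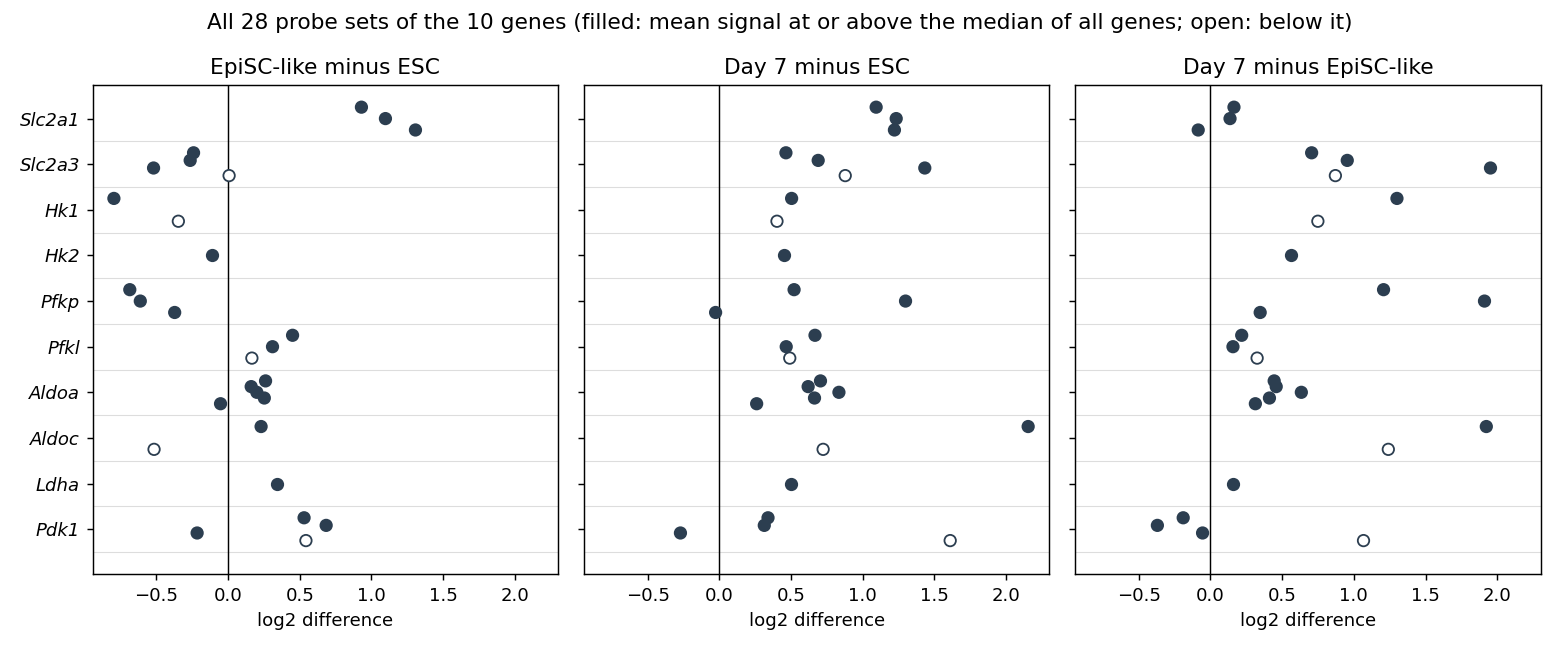
Log2 differences of all 28 probe sets of the 10 genes, 1 row per gene; filled points are at least as bright as the median gene. For day 7 minus ESC 21 of the 23 filled points lie above 0, with 1 of Pfkp and 1 of Pdk1 below it.

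Of the 28 probe sets 23 were at least as bright, in mean log2 signal, as the median gene, and 5 were dimmer. Among the 23, the day 7 cells were above ESC in 21 and above EpiSC-like cells in 19, and the EpiSC-like cells were above ESC in 13. Tested over all 34945 probe sets with 1 gene, 0 of the 28 passed in any comparison, with smallest adjusted p of 0.0557 for Aldoc at day 7 against ESC. Of all these probe sets 0.581% were called when EpiSC-like cells were set against ESC, 0.0258% when day 7 was, and 0% between day 7 and EpiSC-like cells. Levels of different probe sets cannot be compared, since each binds with its own efficiency.

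Isozymes of 1 step were compared by how their log2 difference within an array moved between groups. With the ESC mean set to 0, Aldoc minus Aldoa was 0.36 and -0.36 in ESC, 0.19 and -0.25 in EpiSC-like cells, and 1.76 and 1.14 at day 7. Day 7 did not overlap the others, and the EpiSC-like arrays lay within the ESC range. Slc2a1 minus Slc2a3 was 0.50 and -0.50 in ESC, 1.14 and 1.20 in EpiSC-like cells, and 0.75 and 0.51 at day 7. The day 7 values thus lay just above the higher ESC array. Without ESC replicate 1 the day 7 difference of this pair from ESC was 1.13, and without ESC replicate 2 it was 0.13.

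The hexokinase and phosphofructokinase pairs stood farther from ESC, on average, in the EpiSC-like cells than at day 7. Hk2 minus Hk1 was 0.32 and -0.32 in ESC, 1.04 and 0.33 in EpiSC-like cells, and 0.03 and -0.13 at day 7. Pfkp minus Pfkl was 0.26 and -0.26 in ESC, -0.61 and -1.66 in EpiSC-like cells, and -0.61 and 0.31 at day 7. In both pairs the EpiSC-like arrays did not overlap ESC, barely so in the hexokinase pair, whereas day 7 did overlap ESC. With 2 arrays a group the smallest two-sided p of an exact permutation test is 0.333, which each comparison without overlap reached, so none of the 12 comparisons could pass.

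**Figure D4:**
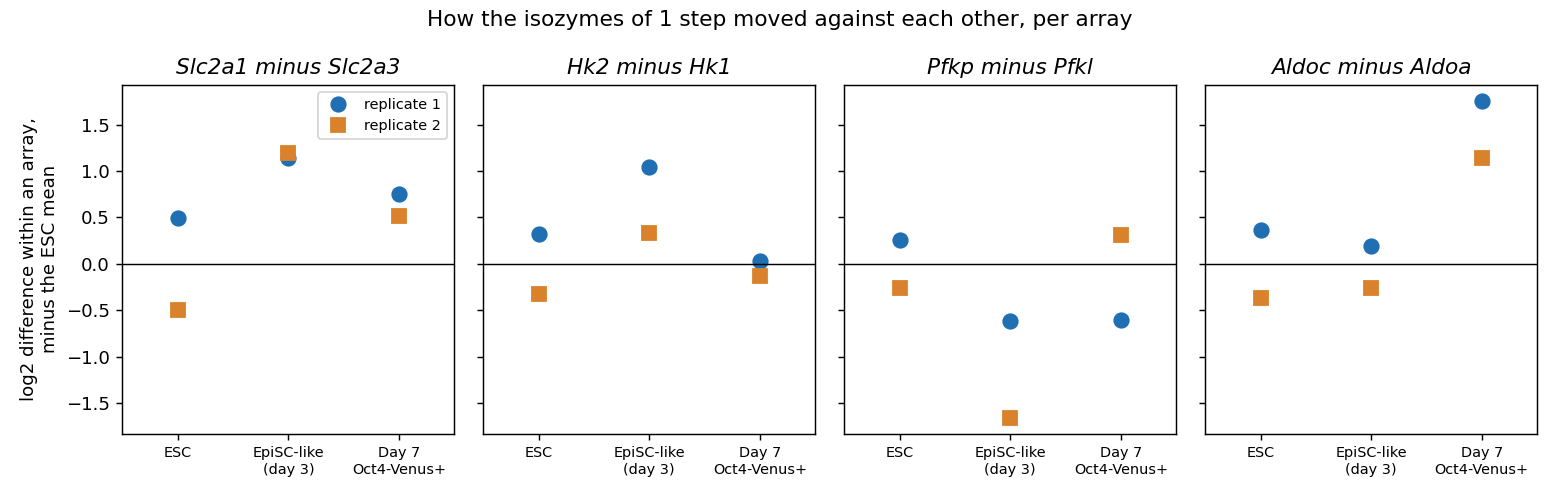
Difference in log2 signal between 2 isozymes of a step within each array, with the mean of the ESC arrays set to 0 (circles replicate 1, squares replicate 2). Aldoc minus Aldoa stood at 1.14 and 1.76 at day 7, and Pfkp minus Pfkl at -0.61 and -1.66 in the EpiSC-like cells.

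The other glycolysis enzymes were not called in any comparison. At day 7 against ESC 8 of the 10 that were measured were above 0, with a median of 0.70. The highest was the neuronal enolase Eno2, at 180 and 203 units at day 7 against 54.8 and 81.6 in ESC (1.32 ± 0.33, adjusted p = 0.118). The muscle-type phosphofructokinase Pfkm stood at 1.29 ± 0.31 (adjusted p = 0.110) and the triose phosphate isomerase Tpi1 at 1.15 ± 0.32 (adjusted p = 0.138). Hk3 had the lowest value, -1.57 ± 0.39 (adjusted p = 0.114), at 27.2 and 42.9 units at day 7 against 131 and 137 in ESC.

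For EpiSC-like cells against ESC 7 of those 10 were above 0, with a median of 0.13, from -0.98 for Hk3 to 0.82 for Tpi1. For day 7 against EpiSC-like cells 8 were above 0, with a median of 0.32. The list holds the M-type pyruvate kinase Pkm, which stood at -0.04 ± 0.40 at day 7 against ESC, with 8965 and 7763 units at day 7 and 6363 and 11502 in ESC. Gapdh was read only by the array's control probe sets, which were not tested. Its 3' control had 20674 and 33558 units at day 7 against 16614 and 34499 in ESC, so it was higher in the replicate 1 arrays and not in the replicate 2 arrays.

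Among the enzymes that set fructose 2,6-bisphosphate, the strongest activator of phosphofructokinase, 1 of 4 was called higher at day 7 than in ESC. In that comparison 2 of the 4 were above 0, and 0.764% of all genes were called higher. Pfkfb3, the inducible form with high kinase activity, had 190 and 148 units in ESC, 233 and 144 in EpiSC-like cells, and 1435 and 1059 at day 7 (2.76 ± 0.32 for day 7 against ESC, adjusted p = 0.0292). Without any 1 array this call was lost, in fits where hardly any gene passed, with differences from 2.55 to 2.98. It was also lost with the replicate block, a pseudocount of 1, separate probe sets or the 2 groups alone. Those fits called from 0% to 0.0385% of all genes. Tigar, whose phosphatase activity opposes it, stood at -0.62 ± 0.23 (adjusted p = 0.230) for day 7 against ESC and at -1.001 for EpiSC-like cells against ESC (adjusted p = 0.0958). Of the 8 other glucose transporters 0 were called, with medians of -0.14 for day 7 against ESC and -0.41 for EpiSC-like cells against ESC. The highest of them at day 7 against ESC was Slc2a12 (0.66), and the lowest Slc2a2 (-0.78).

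Genes of pyruvate and lactate handling were not called either (0 of 15 in each comparison). At day 7 against ESC their median was 0.10, with the kinase Pdk4 highest at 1.59 ± 0.33 (adjusted p = 0.0826) and the pyruvate dehydrogenase subunit Pdhb lowest at -0.72 ± 0.25 (adjusted p = 0.213). The lactate transporter Slc16a3 was the highest in EpiSC-like cells against ESC (1.09, adjusted p = 0.178) and the pyruvate carrier Mpc1 the lowest (-0.98, adjusted p = 0.156). In the same day 7 comparison, medians were -0.12 over 13 citric acid cycle genes, -0.09 over 6 pentose phosphate genes and 0.67 over 7 gluconeogenesis genes, with 0 called in each. The fructose bisphosphatase Fbp2 stood at 1.41 ± 0.27 (adjusted p = 0.0708), and the mitochondrial carboxykinase Pck2 at -1.10 ± 0.34 (adjusted p = 0.168).

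**Figure D5:**
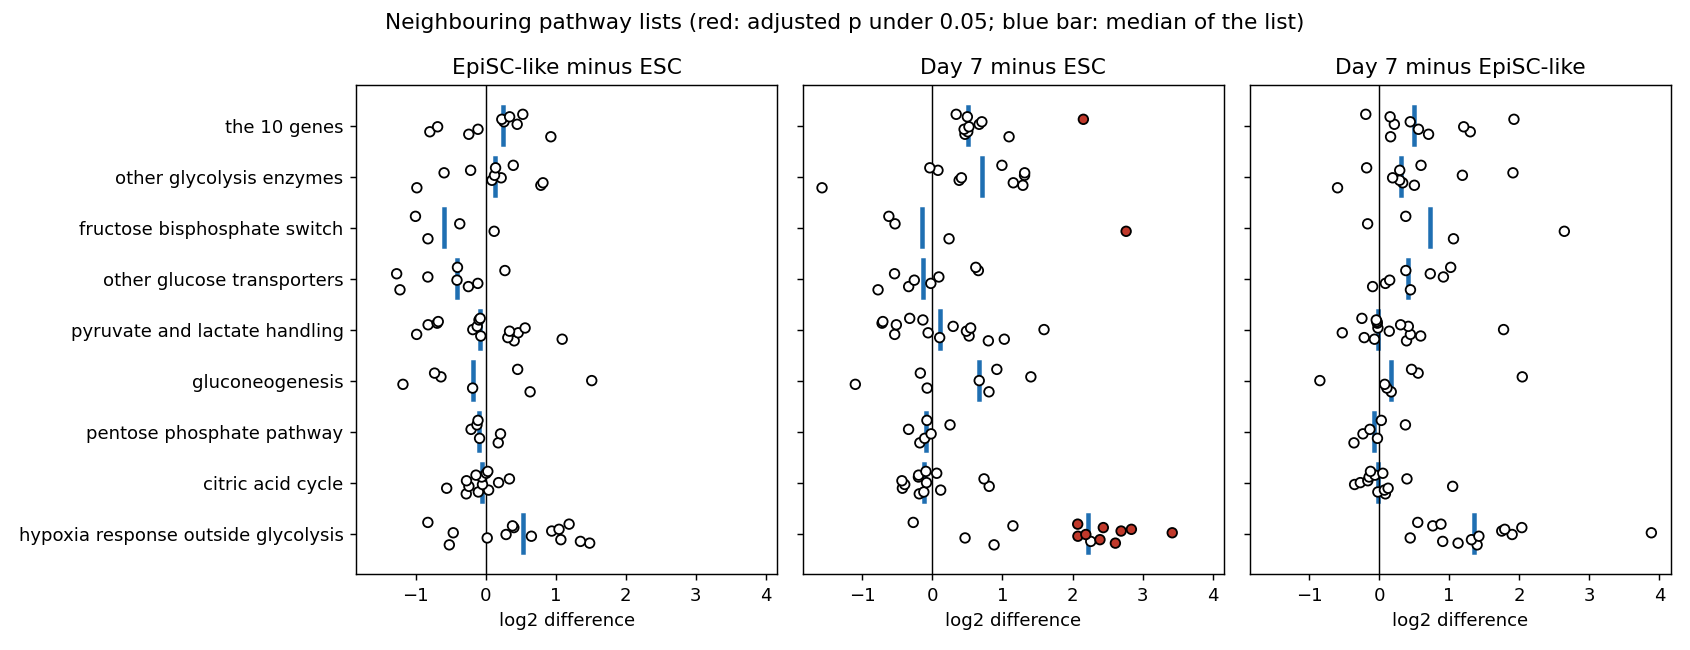
Log2 differences of every measured gene in 9 lists, 1 point per gene, with the list's median as a bar and called genes filled. At day 7 against ESC the called genes are Aldoc, Pfkfb3 and 9 hypoxia response genes, and medians of the citric acid cycle and pentose phosphate lists are -0.12 and -0.09.

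The hypoxia response genes outside glycolysis are given because several of the 10 genes are known targets of the same factors. Of 14 measured, 13 were above 0 at day 7 against ESC, with a median of 2.22 over the 14. In that comparison 9 of them were called higher, where 0.764% of all genes were: Egln1, Bnip3, Car12, Adm, Ndrg1, Ankrd37, P4ha1, P4ha2 and Ddit4. These calls were lost without any 1 array, in fits where hardly any gene passed. The count was 0 of 14 with the replicate block, with a pseudocount of 1 and in the fit on the 2 groups alone, and 1 with separate probe sets. Those fits called from 0% to 0.0385% of all genes. In EpiSC-like cells against ESC 11 of the 14 were above 0, with a median of 0.53 and 0 called, where 1.9% of all genes were. Among genes at or above the median of mean signal, 6 of 13 were called higher there, in a fit that called 7.86% of genes. At day 7 against EpiSC-like cells all 14 were above 0, with a median of 1.36 and 0 called, where 0% of all genes were. The oxygen-regulated subunits of the hypoxia-inducible factors were not called. Epas1 had 2043 and 3993 units at day 7 against 1532 and 728 in ESC (1.42 ± 0.53, adjusted p = 0.233), and Hif1a 4344 and 3830 against 6709 and 4631 (-0.45 ± 0.27, adjusted p = 0.441). Myc, a transcription factor known to raise Ldha and other glycolysis genes, fell by 2.81 ± 0.31 at day 7 (adjusted p = 0.0292), to 94.5 and 84.6 units against 908 and 579 in ESC. In EpiSC-like cells against ESC the only called regulator of 15 was Esrrb, which fell by 2.08 (adjusted p = 0.0395). Both calls were lost without any 1 array, in fits where few genes of all passed. The differences were then from -3.13 to -2.50 for Myc and from -2.39 to -1.78 for Esrrb. Both were also lost in the other fits that lost the Pfkfb3 call. For EpiSC-like cells against ESC those other fits called from 0% to 0.792% of all genes. The Esrrb call was also lost with the mean of all probe sets (adjusted p = 0.0587).

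Some genes followed the array values of a member closely. The measure was the root mean square difference over the 6 arrays of log2 values centred on each gene's own mean, among 8905 genes with a mean at or above the median. The nearest to Aldoc was Ero1a (0.08, within a range of 2.504 for Aldoc), itself called higher at day 7 than in ESC (2.08, adjusted p = 0.0356), and then Rnf128 (0.14). The nearest to Slc2a1 were Gpx3 (0.09) and Cd24a (0.10), against a range of 1.43. Pgm2 (0.10) was nearest to Hk1, with a range of 1.61, and Aamdc (0.11) to Pfkp, with a range of 1.59. Genes close to Pdk1 were Faap20 (0.05) and Dpy19l1 (0.05), within its range of 0.73.

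Some other measures differed between arrays, not all of them with day 7. The 7 primitive and visceral endoderm markers summed to 784 and 510 units in ESC, 672 and 499 in EpiSC-like cells, and 2271 and 10220 at day 7. All 7 were above 0 for day 7 against ESC, with 0 called. The difference between the 3' and 5' actin probe sets, which widens as RNA shortens, was 0.71 and 0.94 at day 7 against 0.51 and 0.53 in ESC. The same difference for Gapdh overlapped, at -0.12 and -0.18 at day 7 against 0.0054 and -0.30 in ESC. The poly-A spike-in controls averaged 126 and 123 units on ESC replicate 2 and EpiSC-like replicate 2, and 1205 to 1531 on the other 4 arrays. The sum over the 5 fibroblast markers was 10703 and 7219 in ESC, 5944 and 3134 in EpiSC-like cells, and 5076 and 6174 at day 7. The markers did not share that direction in EpiSC-like cells against ESC, where 2 of the 5 were above 0. The only call among them there was Col1a2, which was higher by 2.00 (limma adjusted p = 0.0477), where 1.33% of all genes were called higher. The part of these measures in the results was not tested. In sorted bulk samples, fewer cells of a type and less RNA per cell cannot be told apart.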

How the data were processed

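The deposited values of 6 Affymetrix 3' expression arrays, 2 per group, are linear signal intensities per probe set. The authors' values, as deposited, had a mean between 500.003 and 500.004 on every array after 2% of probe sets were left out at each end. The program was Affymetrix Expression Console 1, per the submitters' processing notes, and its algorithm and the genome build are not given in the sources used here. Biotin-labelled RNA was prepared from 100 ng of total RNA, per the labels' protocols. Depth is not a property of arrays, and their number limits the precision.

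Of 45101 probe sets, 64 controls were left out, and 34945 of the others had 1 gene symbol in the platform annotation and 932 several. Gene identifiers of 34741 of the 34945 were in the RefSeq table of GRCm38.p6, and 0 symbols changed. The brightest probe set (mean over 6 arrays) stood for each of 18193 genes. A linear model with limma 3.58.1 in R 4.3.3 was run on log2(signal + 16) of all arrays with 3 group means and moderated with eBayes, with 3 residual degrees of freedom and no filter. Fitting was tested on simulated data with the spread of these arrays, in which 200 brighter genes were changed by 1, 2 or 3 log2 units. For day 7 against ESC the fit called 0%, 61% and 91.5% of those genes. An uncalled difference of about 1 or less therefore does not show that a gene was unchanged. Group means are given with the SD over 2 arrays, differences with the fit's standard error. Deviations of arrays with the same replicate number correlated across genes with r = 0.29, 0.08 and 0.09 in the 3 pairs of groups, so the number was not taken as a pairing. The hybridization controls, like the highest signals, did split by that number. They averaged 5591 to 7108 units on the replicate 1 arrays and 11227 to 13512 on the replicate 2 arrays. A shift of the brightest genes with the number is therefore left in the spread of the reported fit. Alternatives were pseudocounts of 1 and 64, filters on dim genes, median centring, quantile normalization, other probe set rules, the replicate block, fits on 2 groups and each array left out.

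Genes named were the 10 members, called genes of the lists, otherwise each list's highest and lowest value, and the 2 genes nearest to a member. Pfkm, Pkm, Gapdh, Hif1a and the neuron marker Dcx were named outside that rule, after their values were seen. Members and lists were chosen with earlier results of these data known.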

Additional observations from a re-analysis of the deposited data

How the results depend on the processing

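The 10 genes gave 480 single-gene differences under the alternatives. Of these 450 kept their direction and side of the threshold, 10 lost the call of Aldoc at day 7 against ESC, 7 gained a call and 13 changed sign. Many could not change direction: the filters, separate probe sets, the block, the 2-group fits and leaving out an array of the third group keep the difference itself. The 450 is therefore no measure of stability. The number called of 10 at day 7 against ESC was 1 as reported. It was 0 with a pseudocount of 1, with all probe sets tested separately, with the arrays of the 2 groups alone and with the replicate block (adjusted p for Aldoc 0.0668 with the block). Those fits called from 0% to 0.0385% of all genes. Without any 1 array, where hardly any gene passed, the call was lost too. The number was 2 among genes at or above the median of mean signal (9.15% of genes called there). At day 7 against EpiSC-like cells, 0 as reported, it was 2 with a pseudocount of 64, 1 at or above the 25th percentile and 3 at or above the median of mean signal, in fits that called 1.15%, 1.01% and 3.44% of genes. For EpiSC-like cells against ESC it was 0 under every alternative run. The median difference of the 10 genes ranged without 1 array from 0.41 to 0.76 (day 7 against ESC), 0.37 to 0.68 (day 7 against EpiSC-like) and 0.03 to 0.36 (EpiSC-like against ESC). Centring arrays put it at 0.29, 0.44 and 0.092 in the same order, and the mean of all probe sets put the last at 0.028. Leaving out an ESC array moved Slc2a1 minus Slc2a3 to between 0.13 and 1.13 at day 7 and 0.67 and 1.67 in EpiSC-like cells, against ESC. With the mean of all probe sets, Aldoc minus Aldoa at day 7 against ESC was 0.82, and Slc2a1 minus Slc2a3 at day 7 against EpiSC-like cells -1.05.

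The changes of sign were all in uncalled differences near 0. With the mean of all probe sets, Aldoc in EpiSC-like cells against ESC was -0.14 and Pdk1 at day 7 against EpiSC-like cells 0.11. Without 1 array, in EpiSC-like cells against ESC, Aldoc ranged from -0.079 to 0.54, Hk2 from -0.31 to 0.090, Ldha from -0.14 to 0.82 and Slc2a3 from -0.63 to 0.15. At day 7 against EpiSC-like cells, Ldha ranged from -0.32 to 0.64, Pfkl from -0.14 to 0.58 and Slc2a1 from -0.064 to 0.39. The cause of these changes was not tested. Over all genes the counts called higher and lower at day 7 against ESC were 94 and 82 with arrays centred on their median, which put the median of all genes at -0.20 (0.02 as reported), against 139 and 52 as reported, and 0 in both directions with a pseudocount of 1 or the replicate block. For EpiSC-like cells against ESC the counts were 242 and 104 as reported, 184 and 149 centred and 0 with the block.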
